A study of Homo sapiens with 2 samples.

Results

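The transcripts of 10 genes of transforming growth factor beta (TGF-beta) signalling were compared between A549 cells overexpressing plakophilin 2 (PKP2) and A549 cells with the vector. The genes were taken by symbol from a fixed list, matched to their Entrez IDs, and all 10 had a value among the 16399 genes of the tables. They are the ligands TGFB1 and TGFB2, the receptors TGFBR1 and TGFBR2, the signal transducers SMAD2, SMAD3 and SMAD4, the inhibitors SMAD7 and SKIL, and the target gene TGFBI. A549 is an established human lung adenocarcinoma line. The PKP2 group is 1 library of cells in which PKP2 was overexpressed with an SFB tag, and the vector group is 1 library of cells labelled vector, both at passage 5 and grown in DMEM with serum. The labels do not say whether either culture was a clone or a pool. With 1 library a group no difference has a replicate check, no test was possible, and every ratio below compares these libraries.

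TGF-beta is made as a latent precursor that is held in the matrix until integrins or proteases release it. The active ligand binds TGFBR2, a serine and threonine kinase, which recruits and phosphorylates TGFBR1, and TGFBR1 then phosphorylates SMAD2 and SMAD3. These join SMAD4, enter the nucleus and bind short DNA sequences beside their target genes. Among the targets are SMAD7 and SKIL, which shut the signal down again, and TGFBI, which encodes a secreted matrix protein. In lung carcinoma lines such as A549 the pathway is known for inducing an epithelial to mesenchymal transition.

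Windows that end at the RefSeq gene start are shown for the feedback inhibitors SMAD7 and SKIL, for the target TGFBI, and for TGFBR2, the pathway gene with the largest negative difference between the libraries. Each is 250 bases long, is read 5′ to 3′ on the strand of the gene, and comes from RefSeq on GRCh38.p14. RefSeq and GENCODE, whose coordinates are used below, place some starts differently: by GENCODE the SMAD7 window lies inside the gene, and the SKIL and TGFBI windows run past the start. Capitals mark the SMAD box AGAC and the GC-rich SMAD motif GGCGC, searched on both strands, so that GTCT and GCGCC are marked too. A run GGCGCC holds the GC-rich motif on both strands and counts as 2 matches.
SMAD7 (chr18:48950966-48951215, minus strand): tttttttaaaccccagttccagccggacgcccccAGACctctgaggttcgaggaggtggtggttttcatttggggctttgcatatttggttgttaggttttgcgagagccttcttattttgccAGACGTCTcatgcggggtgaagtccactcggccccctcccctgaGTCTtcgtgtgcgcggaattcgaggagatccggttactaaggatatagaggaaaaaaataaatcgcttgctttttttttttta
SKIL (chr3:170357465-170357714, plus strand): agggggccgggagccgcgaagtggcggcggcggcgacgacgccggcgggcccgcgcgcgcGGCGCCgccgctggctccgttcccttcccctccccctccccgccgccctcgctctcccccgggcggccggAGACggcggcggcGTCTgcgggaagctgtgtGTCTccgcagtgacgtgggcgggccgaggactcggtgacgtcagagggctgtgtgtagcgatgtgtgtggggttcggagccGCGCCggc
TGFBI (chr5:136028738-136028987, plus strand): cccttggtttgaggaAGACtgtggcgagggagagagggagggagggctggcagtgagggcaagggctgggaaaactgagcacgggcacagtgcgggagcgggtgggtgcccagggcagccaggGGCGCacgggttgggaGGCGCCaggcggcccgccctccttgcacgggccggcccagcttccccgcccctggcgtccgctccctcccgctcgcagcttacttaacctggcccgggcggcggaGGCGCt
TGFBR2 (chr3:30606106-30606355, plus strand): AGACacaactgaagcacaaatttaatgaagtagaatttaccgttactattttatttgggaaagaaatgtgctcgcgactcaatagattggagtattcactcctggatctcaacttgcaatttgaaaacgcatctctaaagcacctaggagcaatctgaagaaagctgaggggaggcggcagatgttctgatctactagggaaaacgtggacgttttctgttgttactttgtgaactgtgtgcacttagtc

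The SMAD7 window held 4 matches of AGAC and none of GGCGC, and a pair of its AGAC matches adjoin each other in opposite orientation. The SKIL window held 3 matches of each motif, the TGFBI window 1 of AGAC and 4 of GGCGC, and the TGFBR2 window 1 of AGAC. Both motifs are common. AGAC lay in 77.6% of the 27305 windows of this length over all genes, GGCGC in 44.2% and CAGAC, the longer form that contains AGAC, in 37.8%. For the 10 pathway genes the counts were 7, 8 and 4. At least 3 matches of AGAC were found in 3 of the 10, SMAD7, SKIL and the ligand TGFB2, whose window is not shown. The share over all windows was 21.1%. The matches describe the letters only. No binding was measured.

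The libraries held 16808842 estimated counts for PKP2 and 16996976 for vector, and levels are given as CPM, counts per 1000000 of the library total. Genes that reached 1 CPM in either library are called expressed, which held for 12820 genes and for all 10 pathway genes. PKP2 itself stood at 268 CPM in the PKP2 library and 27.3 CPM in the vector library, a ratio of 9.82. The 8 markers of A549 and lung epithelium summed to 21535 CPM in PKP2 and 21032 CPM in vector, nearly all of it from keratins and A549 enzymes. Among the 8 the epithelial marker EPCAM was at only 1.37 CPM and 1.47 CPM, and CDH1 at 55.0 CPM and 63.2 CPM. The 4 endothelial markers with a value summed to 0.952 CPM in PKP2 and 0.294 CPM in vector. The 5 fibroblast markers with a value summed to 11.8 CPM in PKP2 and 9.59 CPM in vector, of which COL1A1 alone made up 10.4 CPM and 8.12 CPM. The 3 leukocyte markers with a value summed to 86.0 CPM in PKP2 and 82.1 CPM in vector, nearly all of it CD68, a lysosomal protein that epithelial cells also make, while CD14 was at 3.27 CPM and 3.35 CPM. Other markers on these lists (COL1A2, DCN, PTPRC, CD3E and PECAM1) had no value matched by symbol and were not analysed here. In bulk RNA, more cells with a transcript and more transcript per cell cannot be told apart.

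Every step of the core pathway was transcribed in both libraries, between 31.1 and 1395 CPM, and the differences were small. None of the 10 genes differed by 1.5-fold on the log2(CPM + 1) scale, a size that 0.733% of the expressed genes reached on the higher side and 0.788% on the lower side. The 95% counting interval of the PKP2 over vector ratio lay above 1 for 2 genes, TGFBI and TGFB1, and below 1 for 4 genes, TGFBR2, SKIL, SMAD4 and SMAD2. Over all expressed genes such intervals lay above 1 for 16.3% and below 1 for 19.8%, and over the 6036 genes in the same range of mean CPM for 23.1% and 30.3%. After removal of the length and GC trend described below the intervals lay above 1 for 5 genes, TGFBI, TGFB1, TGFBR1, SMAD2 and SMAD3, and below 1 for TGFBR2 alone. Over the 6030 genes of that CPM range with a fitted trend the shares were then 16.8% and 21.3%. Over all 12671 expressed genes with a fitted trend they were 12.4% and 14.2%. The lower bounds of TGFB1 and SMAD3 lay only just above 1, at 1.0035 each. These intervals also leave out the error of the fitted trend. The difference, log2(CPM + 1) in PKP2 minus vector, had a median of -0.05 over the 10 genes, with a range of -0.31 to 0.25, against -0.00155 over all expressed genes. Its SD was 0.18 over the 10 genes and 0.18 over the genes of the same range of mean CPM.

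**Figure D1:**
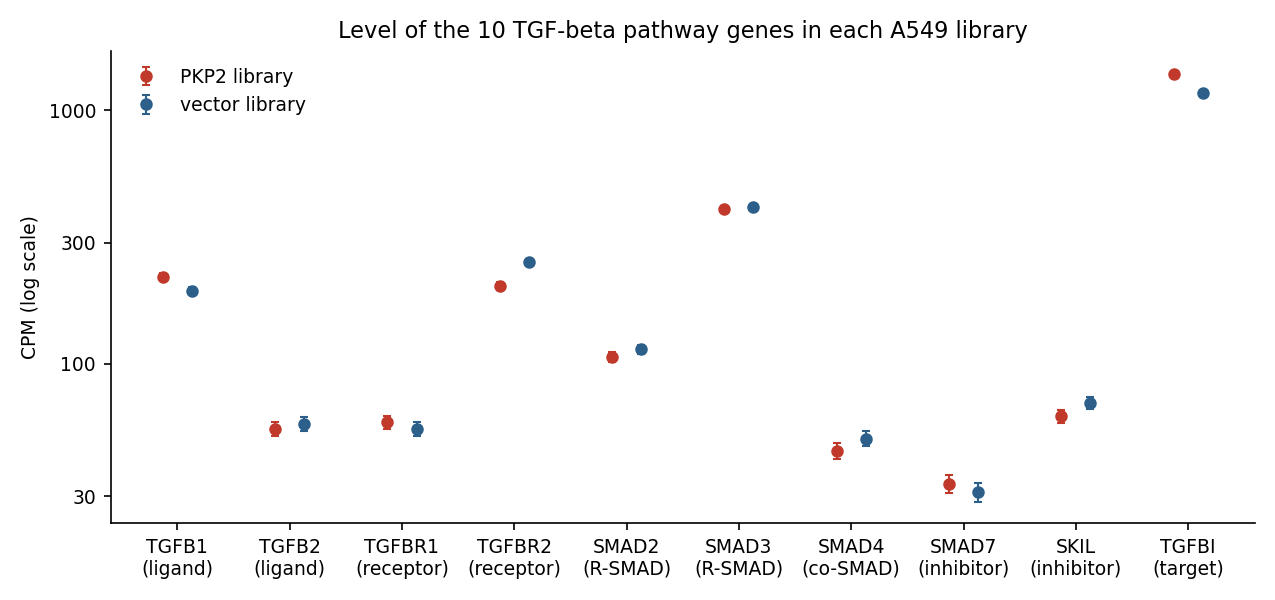
Level of each of the 10 genes as CPM on a log axis, PKP2 library in red and vector library in blue, with exact 95% Poisson intervals of the counts as bars. TGFBI is at 1395 CPM in PKP2 and 1171 CPM in vector, and SMAD7 is lowest at 33.5 CPM and 31.1 CPM.

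A gradient over the whole transcriptome runs through the comparison and bears on each of these genes. Over 10798 genes averaging at least 5 CPM, the difference was lower for longer transcripts and higher at higher GC content, with Spearman's rho across genes of -0.52 and 0.41. The fifth of the genes with the shortest transcripts had a median difference of 0.13, and the fifth with the longest, at 6109 nucleotides or more, of -0.16. Of the 10 pathway genes, TGFBR1, SMAD2, SMAD3, SMAD4 and SKIL are in this longest group. The ratio of each of the 10 genes is therefore also given with an additive length and GC trend removed. For the related genes this is done for some values only. What produced the gradient was not tested.

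**Figure D2:**
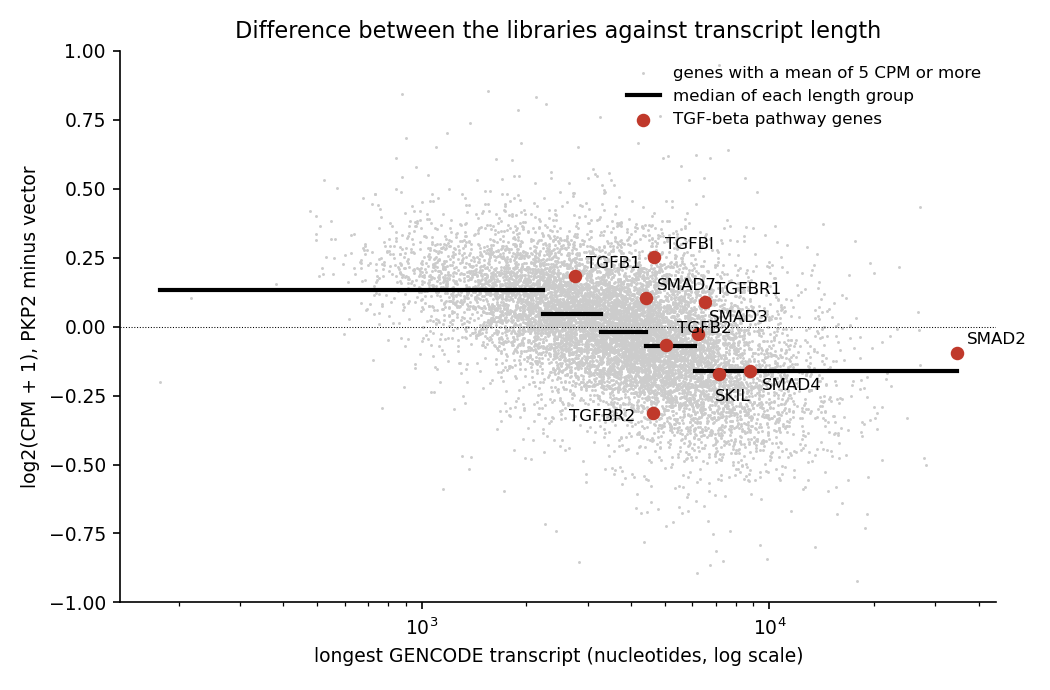
Difference between the libraries (log2(CPM + 1), PKP2 minus vector) against the length of the longest GENCODE transcript (log axis). Grey points are genes averaging at least 5 CPM, the few beyond 1 in size are not drawn, black bars are the medians of 5 equal length groups, and red points are the pathway genes. SMAD4 and SKIL lie close to the median of the longest group (-0.16), TGFBI (0.25) above the median of its group and TGFBR2 (-0.31) below it.

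The ligands differed in opposite directions as measured, and only TGFB1 did so beyond counting error. TGFB1 encodes the main TGF-beta of most tissues (Entrez 7040, chr19:41301587-41353911, minus strand, GRCh38). It had 3699 counts or 220 CPM in PKP2 and 3295 counts or 194 CPM in vector, a ratio of 1.14 (95% counting interval 1.08 to 1.19). Its transcript is short and GC-rich, and after removal of the length and GC trend its ratio was 1.05 (1.00 to 1.10). TGFB2 (Entrez 7042, chr1:218346235-218444619), the isoform that depends most on the co-receptor TGFBR3, had 929 counts or 55.3 CPM in PKP2 and 985 counts or 58.0 CPM in vector. Its ratio was 0.954 (0.871 to 1.04), a difference not detectable at this depth, and 1.04 (0.947 to 1.14) without the trend. The count ratio of TGFB1 to TGFB2 was 3.98 in PKP2 and 3.35 in vector, 1.19-fold apart (1.07 to 1.32), and 1.01-fold apart once the trend was removed. Per kilobase of the longest coding transcript TGFB1 stood at 79.5 CPM in PKP2 and 70.0 CPM in vector, and TGFB2 at 10.9 CPM and 11.5 CPM. TGFB1 shares exonic sequence with HNRNPUL1 on the opposite strand, and since the strand setting is not given in the sources used here, reads of the overlap cannot be assigned. HNRNPUL1 was at 867 CPM in PKP2 and 841 CPM in vector.

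TGFBR2 had the largest difference from 0 of the 10 genes and was lower with PKP2. TGFBR2 (Entrez 7048, chr3:30606502-30694142) is the receptor that binds the ligand. It had 3403 counts or 202 CPM in PKP2 and 4279 counts or 252 CPM in vector, 1.24-fold lower (1.19 to 1.30). Its ratio was 0.804 as measured and 0.831 (0.794 to 0.869) with the trend removed, so little of the difference went with length and GC content. Of all expressed genes 13.1% were further from 0 than TGFBR2.

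TGFBR1 was not lower alongside it. TGFBR1 (Entrez 7046, chr9:99104038-99154192) is the kinase that TGFBR2 switches on. It had 985 counts or 58.6 CPM in PKP2 and 936 counts or 55.1 CPM in vector, a ratio of 1.06 with an interval of 0.972 to 1.16. Its long AT-rich transcript lies where the trend is negative, and with the trend removed its ratio was 1.19 (1.09 to 1.31). The count ratio of TGFBR2 to TGFBR1, which does not depend on library scaling, was 3.45 in PKP2 and 4.57 in vector. The first is 0.756 times the second (0.683 to 0.836), and 0.698 times with the trend removed. Per kilobase TGFBR2 remained the more abundant receptor, at 43.8 CPM in PKP2 and 54.5 CPM in vector, with TGFBR1 at 8.99 CPM and 8.45 CPM.

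**Figure D3:**
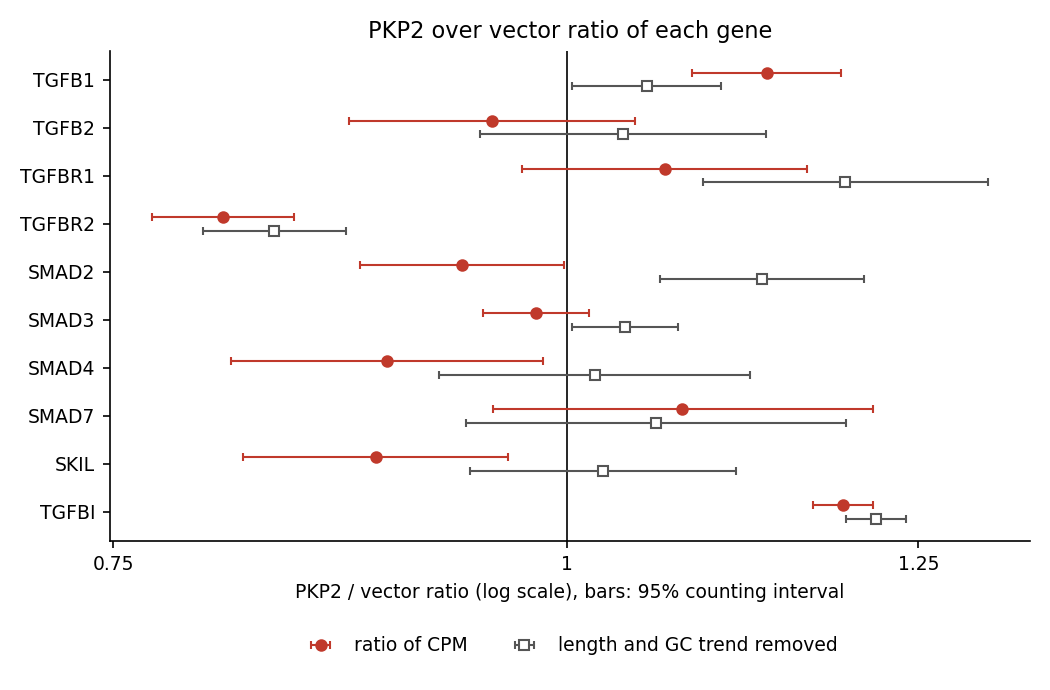
PKP2 over vector ratio of each of the 10 genes on a log axis, as CPM (red) and after removal of the length and GC trend (open squares), with 95% counting intervals. TGFBR2 is below 1 (0.804 and 0.831) and TGFBI above 1 (1.19 and 1.22) in both forms, whereas the intervals of SKIL and SMAD4 lie below 1 only before the trend is removed and that of SMAD2 lies on opposite sides.

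SMAD2 and SMAD4 were slightly lower as measured, with intervals below 1, and SMAD3 had an interval that held 1. Neither SMAD2 nor SMAD4 kept that direction once the trend was removed. SMAD3 (Entrez 4088, chr15:67063763-67195195), which binds DNA directly and carries much of the transcriptional response, had 6824 counts or 406 CPM in PKP2 and 7035 counts or 414 CPM in vector. Its ratio was 0.981 (0.949 to 1.01), and 1.04 (1.00 to 1.07) without the trend. SMAD2 (Entrez 4087, chr18:47808957-47931146, minus strand), its close relative, had 1790.04 estimated counts or 106 CPM in PKP2 and 1934.01 estimated counts or 114 CPM in vector. Its ratio was 0.936 (0.877 to 0.999) as measured and 1.13 (1.06 to 1.21) with the trend removed. SMAD2 is the least certain of the 10: its counts are fractional, as reads shared with other transcripts give, and its longest annotated transcript of 34526 nucleotides is the longest among the 10798 genes of the length comparison.

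SMAD4 (Entrez 4089, chr18:51028394-51085045), the partner that every SMAD complex of this pathway shares, was the least abundant of the 3 in raw CPM. It had 759 counts or 45.2 CPM in PKP2 and 860 counts or 50.6 CPM in vector, 1.12-fold lower (1.02 to 1.24). Without the trend it had a ratio of 1.02 (0.922 to 1.12). Per kilobase SMAD3 stood at 65.0 CPM in PKP2 and 66.3 CPM in vector, and SMAD4 at 5.15 CPM and 5.77 CPM. SMAD2 came to 3.08 CPM and 3.30 CPM per kilobase on its longest transcript, but to 8.82 CPM and 9.42 CPM on its next longest coding one, so its order against SMAD4 depends on the transcript assumed. The count ratio of SMAD3 to SMAD2 was 3.81 in PKP2 and 3.64 in vector. The first is 1.05 times the second, with an interval of 0.974 to 1.13, and 0.916 times with the trend removed. SMAD3 shares exonic sequence with an antisense gene, SMAD4 with a gene on its own strand and TGFB2 with an RNA at its 3′ end, so their counts carry that uncertainty too.

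The feedback inhibitors differed in opposite directions as measured, and only SKIL did so beyond counting error. SMAD7 (Entrez 4092, chr18:48919853-48952052, minus strand) blocks TGFBR1 and recruits ubiquitin ligases to it, and its transcription is an early response to the pathway. It had 563 counts or 33.5 CPM in PKP2 and 529 counts or 31.1 CPM in vector, a ratio of 1.08 (0.954 to 1.21), and 1.06 (0.938 to 1.19) without the trend. No difference was detectable at this depth. SKIL (Entrez 6498, chr3:170357678-170396835) encodes SnoN, a repressor that sits on SMAD complexes. It had 1041 counts or 61.9 CPM in PKP2 and 1188 counts or 69.9 CPM in vector, 1.13-fold lower (1.04 to 1.23). The GC content of its longest transcript is 33.4%, and with the trend removed its ratio was 1.02 (0.941 to 1.11). The windows printed above are unlike in composition too, at 48.0% GC for SMAD7 and 78.4% for SKIL.

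TGFBI was the most abundant of the 10 genes and the one furthest on the higher side. TGFBI (Entrez 7045, chr5:136028895-136063818) encodes a secreted protein that links collagens and integrins and takes its name from its induction by TGF-beta. It had 23455 counts or 1395 CPM in PKP2 and 19903 counts or 1171 CPM in vector, a ratio of 1.19 (1.17 to 1.21). Without the trend it had a ratio of 1.22 (1.19 to 1.24). That trend used its longest transcript, of 4661 nucleotides, whereas its longest coding transcript has 2804. The difference was 0.25 as measured and 0.28 without that trend. With the trend fitted on coding transcripts it was 0.20, so the direction of the correction depends on the transcript assumed. TGFBI made up 54.0% of the summed counts of the 10 genes in PKP2 and 48.6% in vector. Per kilobase it stood at 498 CPM in PKP2 and 418 CPM in vector, far above all the others. TGFB1 came next, at 79.5 CPM and 70.0 CPM. Of all expressed genes 21.4% were further from 0 than TGFBI.

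Per kilobase of the longest coding transcript the order in PKP2 from high to low was TGFBI, TGFB1, SMAD3, TGFBR2, TGFB2, TGFBR1, SKIL, SMAD7, SMAD4 and SMAD2. In vector the order was the same except that SKIL came before TGFBR1. SKIL was at 8.62 CPM per kilobase in PKP2 and 9.73 CPM in vector, and TGFBR1 at 8.99 CPM and 8.45 CPM. With 1 library each the spread between cultures is unknown, and neighbours this close cannot be ordered. The order also depends on the transcript assumed. On the next longest coding transcript SMAD7 was at 26.2 CPM per kilobase in PKP2 and 24.4 CPM in vector, and SKIL at 20.3 CPM and 22.9 CPM. Both were then above TGFB2, at 11.1 CPM in PKP2 and 11.7 CPM in vector, and TGFBR1, at 9.88 CPM and 9.28 CPM.

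Around these 10 genes, 7 lists of related genes were described by their counts and medians. Together they name 88 genes, of which 74 were expressed. Of the 74, 23 had an interval above 1 and 21 below 1, 31.1% and 28.4%, and 38 had a positive and 36 a negative difference. Over all expressed genes the shares were 16.3% and 19.8%. They were 23.1% and 30.3% over the genes in the pathway genes' range of mean CPM. The lists did not move as one, as the plot of the lists shows.

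**Figure D4:**
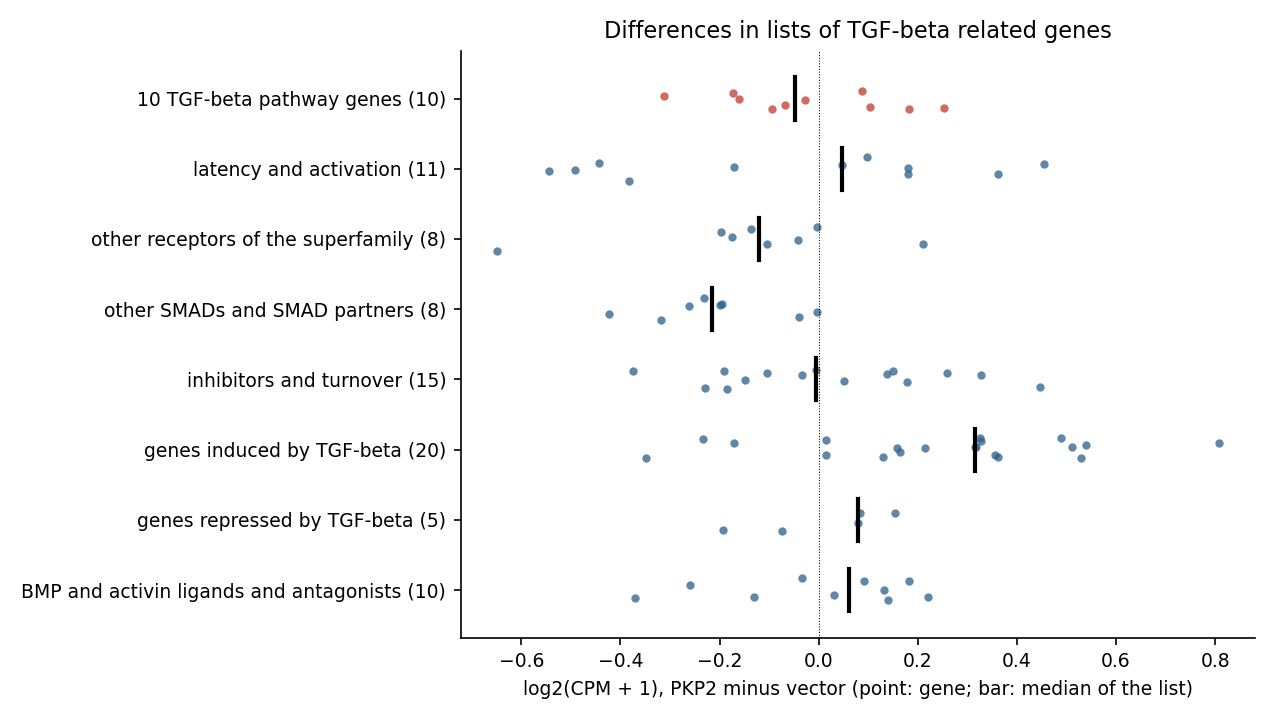
Difference (log2(CPM + 1), PKP2 minus vector) of each expressed gene in 7 lists of related genes (blue) and of the 10 pathway genes (red), with the number of genes in brackets and the list median as a black bar. Genes induced by TGF-beta have a median of 0.32, and other SMADs and SMAD partners a median of -0.21.

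Genes that TGF-beta is known to induce were mostly higher in the PKP2 library. Of 20 expressed members of this list, 15 had an interval above 1 and 2 below 1, and their median difference was 0.32. The shares over all expressed genes were the 16.3% and 19.8% given above. IL11, a cytokine at a low level, had the highest ratio, 1.93 (1.44 to 2.63). It was at 7.85 CPM in PKP2 and 4.06 CPM in vector, and was the 1 member past 1.5-fold on the log2(CPM + 1) scale. ADAM19, a membrane protease, was at 31.2 CPM in PKP2 and 21.2 CPM in vector, a ratio of 1.47 (1.29 to 1.69). TAGLN, with a fractional count, was at 28.4 CPM in PKP2 and 19.6 CPM in vector, a ratio of 1.45 (1.26 to 1.67). PMEPA1, a target that in turn sequesters SMAD2 and SMAD3, was at 560 CPM in PKP2 and 446 CPM in vector, a ratio of 1.26 (1.22 to 1.30). TPM1, an actin-binding tropomyosin with a fractional count, was at 803 CPM in PKP2 and 640 CPM in vector, a ratio of 1.254 (1.22 to 1.29).

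The members with an interval below 1 were KLF10, an early response repressor, at 117 CPM in PKP2 and 138 CPM in vector, and the fibronectin gene FN1. KLF10, like LTBP2, TGM2 and SNAI2 below, was chosen after its value was seen. LTBP2, which encodes a matrix protein, had a ratio of 1.29 (1.15 to 1.46), the transglutaminase TGM2 of 1.246 (1.20 to 1.29), and the transcription factor SNAI2, at 2.14 CPM in PKP2 and 1.18 CPM in vector, of 1.82 (1.03 to 3.32).

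After removal of the length and GC trend the median of the list was 0.30, with 12 of the 20 intervals above 1 and 2 below 1. These shares of 60% and 10% compare with 12.4% and 14.2% over the expressed genes with a fitted trend. Over the 18 members with whole counts the median was 0.27, with 13 intervals above 1. Many of these genes also mark mesenchymal cells, and several had values known from earlier results of these libraries, among them IL11, TAGLN, CDH2 and FN1. The list is therefore no independent evidence of a direction. COL1A1, which is on the list and is also a fibroblast marker, was at 10.4 CPM in PKP2 and 8.12 CPM in vector, and the defining fibroblast gene COL3A1 was at 0.0595 CPM and 0.118 CPM. The part of other cells in the result was not tested.

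**Figure D5:**
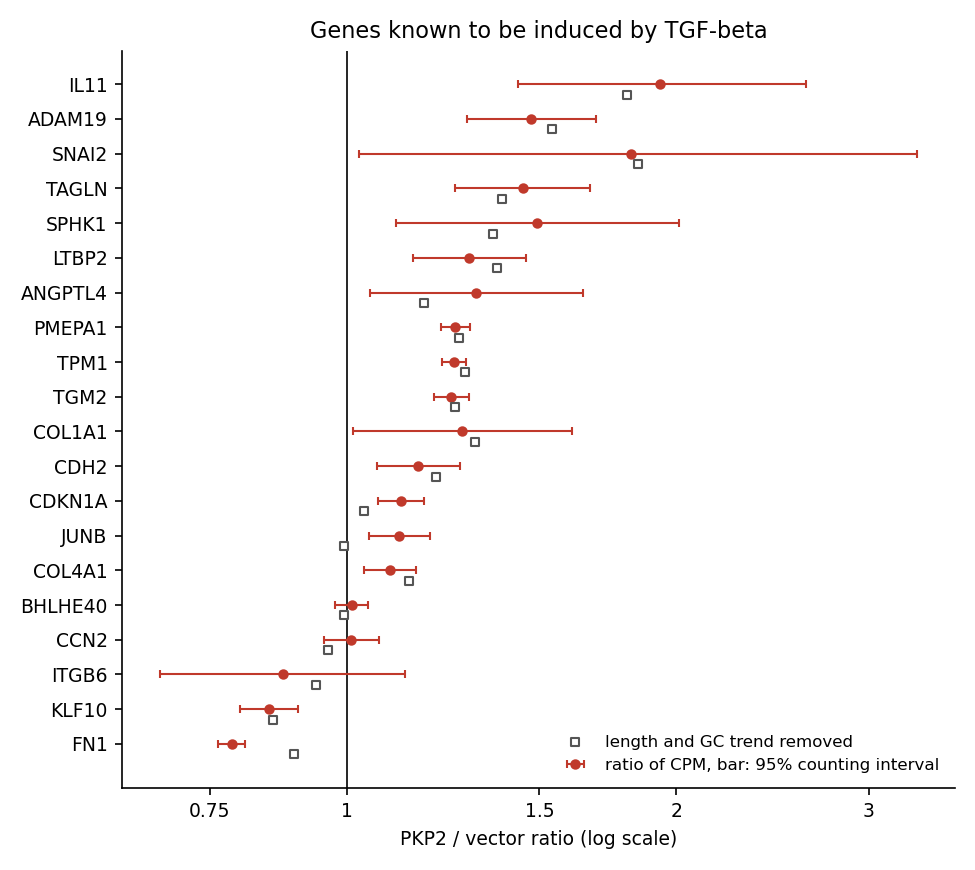
PKP2 over vector ratio of the 20 expressed genes known to be induced by TGF-beta, on a log axis, with 95% counting intervals (red), and after removal of the length and GC trend (open squares). The ratio is above 1 for 17 genes as measured, with IL11 at 1.93 and FN1 at 0.785 as the extremes.

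Genes that TGF-beta represses in epithelial cells went both ways. Of 5, ID1 and ID3, which encode inhibitors of differentiation factors, had intervals above 1, and MYC an interval below 1. These shares of 40% and 20% compare with 16.3% and 19.8% over all expressed genes. ID1 was at 238 CPM in PKP2 and 224 CPM in vector, a ratio of 1.06 (1.01 to 1.11), and ID3 at 252 CPM in PKP2 and 239 CPM in vector, a ratio of 1.06 (1.01 to 1.10). Both have short transcripts. With the trend removed they changed direction, to -0.11 each on the log2 scale, and 4 of the 5 intervals lay below 1. Of the expressed genes with a fitted trend 14.2% then had an interval below 1. MYC was at 233 CPM in PKP2 and 266 CPM in vector, 1.14-fold lower (1.10 to 1.19). Its difference was -0.19 as measured and -0.28 without the trend. CDC25A, a cell cycle phosphatase, had a difference of 0.15 as measured and 0.14 without the trend, and its interval as measured held 1.

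Among genes that store or release the latent ligand, LTBP4 was higher with PKP2 and FBN1, THBS1 and ITGAV were lower. Of 11 expressed members 3 had an interval above 1 and 4 below 1, with a median difference of 0.05. These shares of 27.3% and 36.4% compare with 16.3% and 19.8% over all expressed genes. LTBP4, a latent TGF-beta binding protein, was at 97.7 CPM in PKP2 and 71.0 CPM in vector, a ratio of 1.38 (1.28 to 1.48), and its difference was 0.455 as measured and 0.415 without the trend. LTBP3, another such protein, had a ratio of 1.03 (0.966 to 1.11). FBN1, the microfibril protein to which the latent complexes attach, was at 17.3 CPM in PKP2 and 25.7 CPM in vector, 1.49-fold lower (1.28 to 1.73). THBS1, a secreted activator of latent TGF-beta with a fractional count, was at 130 CPM in PKP2 and 170 CPM in vector, 1.31-fold lower (1.24 to 1.38). ITGAV, a subunit of the integrins that pull the ligand free, was at 160 CPM in PKP2 and 225 CPM in vector. FBN1, THBS1 and ITGAV have long transcripts, and with the trend removed their differences were -0.370, -0.239 and -0.310 in place of -0.545, -0.383 and -0.492.

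The co-receptor TGFBR3 was lower with PKP2, as was TGFBR2. TGFBR3, or betaglycan, presents the ligand to TGFBR2. It had 417 counts or 24.8 CPM in PKP2 and 671 counts or 39.5 CPM in vector, 1.59-fold lower (1.41 to 1.80). Its difference was -0.65, and -0.52 with the trend removed. It was the 1 receptor of this list past 1.5-fold. Of the 8 expressed members 3, or 37.5%, had an interval below 1 and none above 1, against 19.8% and 16.3% of all expressed genes. The others below 1 were the bone morphogenetic protein (BMP) receptors BMPR2, at 47.8 CPM in PKP2 and 55.0 CPM in vector, and BMPR1A, at 53.3 CPM in PKP2 and 60.3 CPM in vector. Their longest transcripts have 11461 and 11255 nucleotides, and with the trend removed each had a difference of 0.04. The activin receptor ACVR1B had a ratio of 0.928 (0.832 to 1.03).

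The other SMADs and the proteins that work with them lay on the lower side as measured. All 8 expressed members had a negative difference, 5 with an interval below 1 and 3 with one that held 1, and the median was -0.21. The 5 make up 62.5%, against 19.8% of all expressed genes with an interval below 1. With the trend removed the median was -0.07 and 2 intervals lay below 1, those of ZFYVE9 and EP300. That is 25%, against 14.2% of the expressed genes with a fitted trend. ZFYVE9, the anchor that brings SMAD2 and SMAD3 to the receptor, was at 15.1 CPM in PKP2 and 20.5 CPM in vector, 1.36-fold lower (1.16 to 1.61). The coactivator EP300 was at 92.3 CPM in PKP2 and 115 CPM in vector, 1.249-fold lower (1.17 to 1.34). TRIM33, which acts on SMAD4, and the coactivator CREBBP had intervals below 1 as measured, and their differences were -0.06 and -0.08 once the trend was removed. SMAD6, the inhibitor of the BMP branch, was at 158 CPM in PKP2 and 163 CPM in vector, a ratio of 0.973 (0.922 to 1.03).

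Inhibitors and turnover factors were divided. Of 15 expressed members 4 had an interval above 1 and 5 below 1, with a median difference of -0.0048. These shares of 26.7% and 33.3% compare with 16.3% and 19.8% over all expressed genes. Without the trend 6 lay above 1 and 2 below 1, with a median of 0.11. Those shares were 40% and 13.3%, against 12.4% and 14.2% of the expressed genes with a fitted trend. Besides PMEPA1, the decoy receptor gene BAMBI was higher, at 39.6 CPM in PKP2 and 32.9 CPM in vector, a ratio of 1.20 (1.07 to 1.35). FKBP1A, which keeps TGFBR1 inactive without ligand, had a ratio of 1.10 (1.06 to 1.14), and its difference was 0.03 with the trend removed. RNF111, the ubiquitin ligase that degrades SMAD7 and SKIL, was at 62.5 CPM in PKP2 and 81.3 CPM in vector, 1.30-fold lower (1.20 to 1.41). STRAP, a receptor-binding inhibitor, was at 181 CPM in PKP2 and 206 CPM in vector, 1.14-fold lower (1.08 to 1.19). With the trend removed RNF111 had a difference of -0.25 and STRAP of -0.24.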

How the data were processed

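RNA sequencing of 2 A549 libraries, 1 per group, was used. The deposited values are estimated counts per gene by Entrez ID, called counts in the file headers, and 2491 genes in PKP2 and 2403 in vector had fractional values. The tools named per the submitters' processing notes are RSEM 1.2.12, HISAT2 2.0.4 and Bowtie2, with the build GRCh38.p12. Annotation, filters, read layout and strandedness were not given in the sources used here. From the counts, CPM and the difference log2(CPM + 1) were computed, with a pseudocount of 1 that understates the change of low genes. Ratios are of plain CPM, with exact 95% Clopper-Pearson intervals from counts rounded to whole numbers. For pairs of genes, count ratios as measured use the counts. With the trend removed, their comparison between libraries uses the log2(CPM + 1) differences instead. Intervals cover counting error only.

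Symbols came from RefSeq (GRCh38.p14, 16183 of 16399 IDs matched), and coordinates, transcript lengths and GC content from GENCODE release 29 on GRCh38. An additive lowess trend (span 0.3) on length and GC was fitted over the 12671 expressed genes with both, 98.8% of them. For an interval with the trend removed, the fitted trend was taken off as a constant. Levels per kilobase use the longest coding transcript. The 10 genes and all lists were chosen with earlier results of these data known. Named genes are the 10, and per list up to 3 by mean CPM and up to 3 by size of difference at a mean of 5 CPM or more, with exceptions named. Some genes first put on these lists are not reported here, and the lists are counted without them. The calculation was tested on simulated counts. Python 3.11.15, SciPy 1.17.1 and statsmodels 0.14.6 were used.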

Additional observations from a re-analysis of the deposited data

How the results depend on the processing

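No paired analysis was possible because each group holds 1 library, and for the same reason no library could be left out. None of the 10 genes was 1.5-fold apart under any alternative, nor at the lower and higher thresholds tried. Pseudocounts of 0.1 and 5, median scaling and TMM scaling left the median difference of the 10 genes at -0.05, and 6 intervals off 1 under both scalings. With genes of fractional counts left out 5 intervals were off 1. Removing the length and GC trend moved the median to 0.0628, and SMAD2 (0.179), SMAD4 (0.0290) and SKIL (0.0358) changed sign, as did TGFB2 (0.05) and SMAD3 (0.05), whose intervals as measured held 1. The trend was also fitted on the longest coding transcript, an alternative chosen after the data were seen. The median was then 0.0748. SMAD2 stood at 0.176, SMAD4 at 0.0329 and SKIL at 0.0489, and TGFB2 and SMAD3 at 0.07 each. TGFBI was at 0.20 and TGFBR2 at -0.25. For all of the 10 genes but TGFBI the longest transcript is also the longest coding one. For those genes the alternative is therefore no separate check on the changes of sign. The changes of sign follow from taking off a trend that is negative for long and AT-rich transcripts. At this depth the intervals of TGFB2, TGFBR1, SMAD3 and SMAD7 held 1 as measured, and those of TGFB2, SMAD4, SMAD7 and SKIL did without the trend.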

Other observations

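Ligands and antagonists of the BMP and activin branches, listed together with GDF11 and GDF15, went both ways. Of 16 genes on this list 10 were expressed, and their median difference was 0.06, with 1 interval above 1 and 1 below 1. These shares of 10% each compare with 16.3% and 19.8% over all expressed genes. With the trend in length and GC content removed the median was -0.0072, with 1 interval above 1 and 4 below 1. Those shares were 10% and 40%, against 12.4% and 14.2% of the expressed genes with a fitted trend. INHBB, a subunit of activin B, was at 71.7 CPM in PKP2 and 86.1 CPM in vector, 1.20-fold lower (1.11 to 1.30), and its difference was -0.26 as measured and -0.32 without the length and GC trend. GDF15, a stress-induced secreted factor, was at 140 CPM in PKP2 and 132 CPM in vector, a ratio of 1.07 (1.01 to 1.13), and its difference was 0.09 as measured and -0.12 with the trend removed. The activin antagonist FSTL3 had a ratio of 1.02 (0.963 to 1.08), GDF11 of 1.10 (0.937 to 1.29) and BMP6, with a fractional count, of 1.16 (0.864 to 1.56). The intervals of all 3 held 1 as measured. Without the trend their differences were -0.09 for FSTL3, with an interval below 1, 0.27 for GDF11, with an interval above 1, and 0.11 for BMP6, with an interval that held 1.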
